A study of Mus musculus with 6 samples.

Results

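Tendon matrix and tendon transcription genes were examined in mouse soleus, a postural calf muscle that ends in the Achilles tendon. The 10 genes Chad, Kera, Tnmd, Scx, Mkx, Fmod, Comp, Thbs4, Prelp and Cilp were taken by symbol from 19938 measured genes, and each was read by a single transcript cluster, the set of probes that reports a gene. They were chosen by their log2 signals in the 3 groups and on each array of these samples, so their own values are a description, no p is given for them, and any count of them past a threshold supports nothing. The 6 Affymetrix Mouse Gene 1.0 ST arrays were labelled as soleus of male C57BL/6 mice of 8 weeks and fell into 3 groups of 2: untreated controls, mice under hindlimb suspension, and mice given electroacupuncture during suspension. In suspension the hind limbs are lifted so that their muscles bear no weight, and electroacupuncture passes a current between acupuncture needles. The labels do not say how long the suspension lasted, where the needles were placed or whether 2 arrays of 1 group hold RNA of different mice. The design text speaks of duplicate hybridizations, so the p-values measure a spread between arrays that may be technical.

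Tendon joins muscle to bone and consists mainly of collagen fibrils laid down by tendon fibroblasts. The transcription factors scleraxis (Scx) and Mohawk (Mkx) direct the formation and upkeep of these cells, and tenomodulin (Tnmd), a membrane glycoprotein, is a classical marker of them. Fibromodulin (Fmod), keratocan (Kera), PRELP and chondroadherin (Chad) are small leucine-rich proteoglycans or relatives of them that bind collagen or cells. Thrombospondin 4 (Thbs4) and cartilage oligomeric matrix protein (Comp) are multimeric matrix glycoproteins of the thrombospondin family, and Cilp is a secreted matrix protein known from cartilage. In a bulk sample of muscle, fewer tendon cells and less RNA per tendon cell cannot be told apart.

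The signals are log2 values, in which a difference of 1 is a 2-fold change, and a signal is compared only between arrays for the same gene. All 10 genes had a mean signal above 3.50, the 95th percentile of 1027 olfactory receptor genes that serve as a measure of background. Of all 19938 genes, 13717 had a mean signal above it. The labelled tissue carried its markers, with the muscle actin gene Acta1 between 13.25 and 13.53 and the slow myosin gene Myh7 between 11.62 and 12.02 on the 6 arrays. Chad, Comp and Cilp are also cartilage genes. A mean signal above the background percentile was found for 10 of 12 cartilage markers, against 13717 of 19938 genes. Among the 10 was the cartilage collagen gene Col2a1 (5.13 to 5.48). Of the 12, Acan (2.64 to 2.96) and Hapln1 (1.86 to 2.33) lay below it on every array, as did the bone markers Dmp1 and Mepe. The part of cartilage in the signals of Chad, Comp and Cilp was not tested. Array medians ran from 4.13 to 4.19. The SD across genes of the difference between duplicate arrays was 0.357 for control, 0.293 for suspension and 0.251 for electroacupuncture.

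The 10 genes showed 3 patterns in the suspended muscle. Chad, Kera and Tnmd had differences from control of -2.48 to -1.94 log2 and were low on both suspension arrays, Fmod, Prelp, Scx and Mkx had differences of -0.89 to -0.61, and Comp, Thbs4 and Cilp were low on suspension array 2 only. In the electroacupuncture group the genes parted again: Chad, Fmod, Prelp and Mkx lay near the control level, Tnmd lay between the groups, and Kera and Scx stayed near or below the suspension level. The median difference of the 10 genes was -0.71 in suspension minus control, against 0.01 over all 19938 genes. It was 0.43 in suspension with electroacupuncture minus suspension and -0.15 in suspension with electroacupuncture minus control, against -0.01 and 0.01 over all genes. The first 2 comparisons share the suspension arrays, and the first and last share the control arrays, so their values are not independent.

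**Figure D1:**
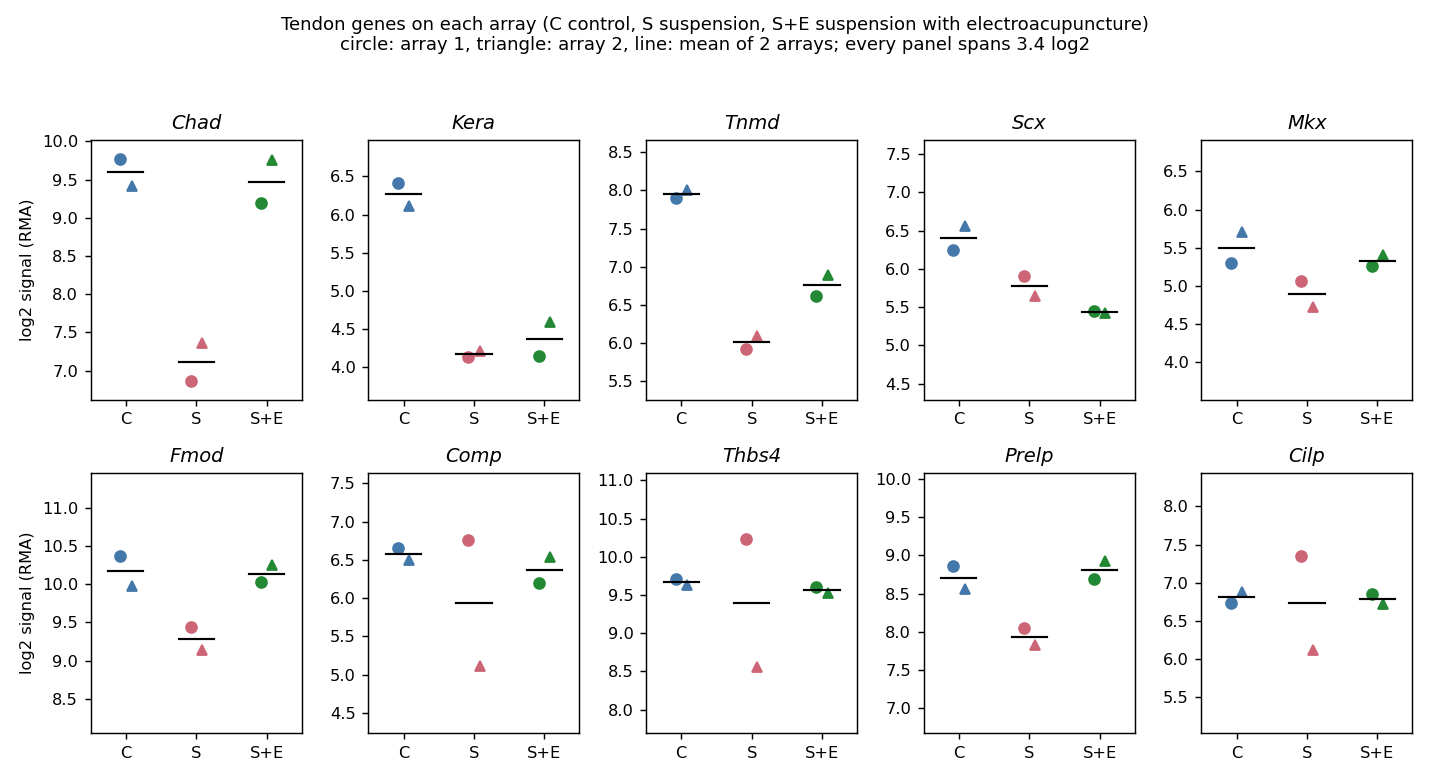
Log2 signal (vertical axis) of each of the 10 tendon genes on the 6 arrays, by group, with circles for array 1, triangles for array 2 and a line at the mean of 2 arrays; every panel spans the same height on the log2 scale. The control mean of Chad is 9.60, its suspension mean 7.11 and its electroacupuncture mean 9.47, where Kera stays low at 4.37, and the 2 suspension arrays of Comp, Thbs4 and Cilp lie far apart.

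Chad, which encodes a cartilage and tendon matrix protein that binds cells and collagen, read 9.78 and 9.42 on the control arrays, 6.87 and 7.36 on the suspension arrays and 9.20 and 9.75 on the electroacupuncture arrays. Both suspension arrays were below all others, and the electroacupuncture arrays overlapped the control arrays. The difference of suspension from control was -2.48 ± 0.23 (log2 difference ± SE from limma), a signal 5.60-fold lower. Suspension with electroacupuncture minus suspension was 2.36 ± 0.23, or 5.14-fold, and the difference from control was -0.12 ± 0.23. With an array left out, these ran from -2.73 to -2.24, from 2.08 to 2.64 and from -0.40 to 0.15. In the RefSeq annotation Chad lies within the bounds of Acsf2, an acyl-CoA synthetase gene, which read 4.75, 5.21, 4.69, 4.26, 4.35 and 4.54 on the same arrays in the same order. Acsf2 differed by -0.50 ± 0.21 in suspension minus control and by -0.03 ± 0.21 in suspension with electroacupuncture minus suspension, so it did not share the high electroacupuncture values of Chad.

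Kera, the gene of keratocan, a keratan sulfate proteoglycan that spaces collagen fibrils, read 6.42 and 6.11 in control, 4.14 and 4.21 in suspension and 4.15 and 4.59 in the electroacupuncture group. All 4 arrays of suspended mice were below both control arrays, and the suspension and electroacupuncture arrays overlapped. The difference was -2.09 ± 0.19 in suspension minus control (4.26-fold lower) and -1.89 ± 0.19 in suspension with electroacupuncture minus control (3.71-fold lower). Between the suspended groups it was 0.20 ± 0.19, and -0.03 without electroacupuncture array 2.

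Tnmd read 7.90 and 8.00 in control, 5.92 and 6.10 in suspension and 6.62 and 6.90 in the electroacupuncture group. The 3 groups did not overlap, with the electroacupuncture arrays between the others. Suspension minus control was -1.94 ± 0.15, a signal 3.84-fold lower. Suspension with electroacupuncture minus suspension was 0.75 ± 0.15 (1.68-fold higher), and minus control it was -1.20 ± 0.15 (2.29-fold lower).

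These 3 genes are those whose suspension minus control differences had the largest size among the 10. The reference promoters of Chad, Kera and Tnmd are shown with their E-boxes, the letters CANNTG, to which scleraxis and other helix-loop-helix factors bind. Each sequence runs 5′ to 3′ from 250 bases before to 50 bases after the annotated start (RefSeq, GRCm38.p6), with E-boxes in capitals:
Chad, chr11:94564797-94565096, plus strand: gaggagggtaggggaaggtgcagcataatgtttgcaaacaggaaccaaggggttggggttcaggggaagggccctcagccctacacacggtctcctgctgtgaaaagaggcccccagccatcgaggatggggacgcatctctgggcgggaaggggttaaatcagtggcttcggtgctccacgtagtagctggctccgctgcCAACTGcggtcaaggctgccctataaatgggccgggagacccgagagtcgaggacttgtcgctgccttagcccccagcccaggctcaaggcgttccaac
Kera, chr10:97606955-97607254, plus strand: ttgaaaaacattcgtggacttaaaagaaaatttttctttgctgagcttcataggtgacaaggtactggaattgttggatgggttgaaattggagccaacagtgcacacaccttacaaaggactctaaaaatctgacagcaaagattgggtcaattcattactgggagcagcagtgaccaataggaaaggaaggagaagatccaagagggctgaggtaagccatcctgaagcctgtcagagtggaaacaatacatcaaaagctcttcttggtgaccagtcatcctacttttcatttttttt
Tnmd, chrX:133850758-133851057, plus strand: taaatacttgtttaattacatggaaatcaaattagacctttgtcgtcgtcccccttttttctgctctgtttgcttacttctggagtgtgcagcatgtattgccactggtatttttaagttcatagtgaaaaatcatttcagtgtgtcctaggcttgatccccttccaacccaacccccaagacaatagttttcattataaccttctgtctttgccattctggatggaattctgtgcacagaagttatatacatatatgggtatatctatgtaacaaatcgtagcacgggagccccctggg
Chad holds 1 E-box, CAACTG, which begins 49 bases before the start, and Kera and Tnmd hold none in this window. The letters CANNTG read the same on both strands as a pattern, and 72.3% of 32851 promoters of the same length hold at least 1. Promoters of 7 of the 10 genes were searched, of which 5 held an E-box. Scx, Mkx and Comp were not among those searched. The search of the 10 genes passed over 1 chromosome, which was not left out of the 32851 promoters. These are matches of letters in a window and show no binding.

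Scx, a basic helix-loop-helix factor, read 6.24 and 6.56 in control, 5.90 and 5.64 in suspension and 5.45 and 5.42 in the electroacupuncture group. The groups did not overlap, and the electroacupuncture arrays were the lowest, below both suspension arrays. The differences were -0.63 ± 0.16 for suspension minus control, -0.34 ± 0.16 for suspension with electroacupuncture minus suspension and -0.96 ± 0.16 for suspension with electroacupuncture minus control. Of the 10 genes Scx alone had a negative difference between the suspended groups with all arrays used, and Kera, Comp, Thbs4 and Cilp took a negative sign when particular arrays were left out. The Scx gene lies within the bounds of Bop1, a ribosome biogenesis gene, which differed by -0.17 ± 0.14, -0.03 ± 0.14 and -0.20 ± 0.14 in the same comparisons.

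Mkx, a homeobox factor, read 5.30 and 5.70 in control, 5.07 and 4.72 in suspension and 5.26 and 5.40 in the electroacupuncture group. The suspension arrays were below all others, and the electroacupuncture arrays overlapped control. The differences were -0.61 ± 0.19, 0.43 ± 0.19 and -0.17 ± 0.19 in the order of the comparisons above. The last was 0.03 without control array 2. On these arrays Scx read lower and Mkx higher in the electroacupuncture group than in suspension, and 32.5% of all genes were without overlap in that comparison. The difference of Scx was -0.21 without suspension array 1, and that of Mkx was 0.26 without suspension array 2.

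Fmod and Prelp, both collagen-binding leucine-rich proteoglycan genes, followed nearly 1 profile. Fmod read 10.38 and 9.98 in control, 9.44 and 9.13 in suspension and 10.02 and 10.25 in the electroacupuncture group. Prelp read 8.86 and 8.56, 8.05 and 7.83, and 8.70 and 8.93 on those arrays. For both genes the suspension arrays were below all others and the electroacupuncture arrays overlapped the control arrays. Suspension minus control was -0.89 ± 0.18 for Fmod and -0.77 ± 0.16 for Prelp, and suspension with electroacupuncture minus suspension was 0.85 ± 0.18 and 0.88 ± 0.16. Against control the electroacupuncture group differed by -0.04 ± 0.18 for Fmod and by 0.10 ± 0.16 for Prelp.

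The likeness of the 2 profiles was measured as the root mean square difference over the 6 arrays after each gene was centred on its own mean. Fmod and Prelp differed by 0.07 log2, and of the 19937 other genes 0 were closer to Fmod than Prelp. This was not particular to them: 0 genes were closer to Thbs4 than Cilp (0.17), which lies on another chromosome, and 2 were closer to Thbs4 than Comp (0.20). Cilp and Comp were less alike, at 0.31, with 2482 genes closer to Cilp than Comp. Fmod and Prelp are neighbours: in the RefSeq annotation no protein-coding gene lies between them. The next gene beyond Prelp, Optc (opticin, of the same family), read between 3.24 and 3.64 and differed by 0.23 ± 0.17 in suspension minus control. The promoters of this adjacent pair are given for that reason (RefSeq, GRCm38.p6, E-boxes in capitals):
Fmod, chr1:134037004-134037303, plus strand: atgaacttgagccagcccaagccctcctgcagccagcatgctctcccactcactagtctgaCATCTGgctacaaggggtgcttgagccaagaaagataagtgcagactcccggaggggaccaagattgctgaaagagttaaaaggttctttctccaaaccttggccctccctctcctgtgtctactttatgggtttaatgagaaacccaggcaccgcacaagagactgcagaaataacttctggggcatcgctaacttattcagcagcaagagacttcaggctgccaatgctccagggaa
Prelp, chr1:133921352-133921651, minus strand: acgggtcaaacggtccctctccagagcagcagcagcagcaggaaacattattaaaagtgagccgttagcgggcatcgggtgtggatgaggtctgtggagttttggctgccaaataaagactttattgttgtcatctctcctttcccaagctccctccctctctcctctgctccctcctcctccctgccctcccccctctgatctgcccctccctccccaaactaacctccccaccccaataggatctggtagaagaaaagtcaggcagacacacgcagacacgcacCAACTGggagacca
Each holds 1 E-box, CATCTG in Fmod, 189 bases before the start, and CAACTG in Prelp, 36 bases after it.

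Comp, Thbs4 and Cilp were set apart by a gap between the suspension arrays. Comp read 6.66 and 6.50 in control, 6.76 and 5.11 in suspension and 6.20 and 6.54 in the electroacupuncture group. Thbs4 read 9.71 and 9.63, 10.23 and 8.56, and 9.60 and 9.53 on those arrays. Cilp read 6.73 and 6.88, 7.35 and 6.12, and 6.86 and 6.72. In each gene suspension array 1 was the highest of the 6 arrays and array 2 the lowest, so suspension overlapped both other groups.

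The gaps between the suspension arrays were 1.66, 1.67 and 1.23 log2 for Comp, Thbs4 and Cilp, which lay at the 99.88th, 99.88th and 99.68th percentile of all genes, against gaps of 0.15, 0.08 and 0.15 between the control arrays. The group differences were -0.64 ± 0.42, -0.27 ± 0.41 and -0.07 ± 0.32 in suspension minus control. Without suspension array 2 they became 0.18, 0.56 and 0.54, and without suspension array 1 they became -1.47, -1.11 and -0.69. The differences of the electroacupuncture group from suspension turned likewise, from 0.43, 0.17 and 0.05 to -0.40, -0.66 and -0.56 without suspension array 2. No direction is therefore given for these genes in either comparison with suspension. Against control, the electroacupuncture group differed by -0.21 ± 0.42, -0.10 ± 0.41 and -0.02 ± 0.32.

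**Figure D2:**
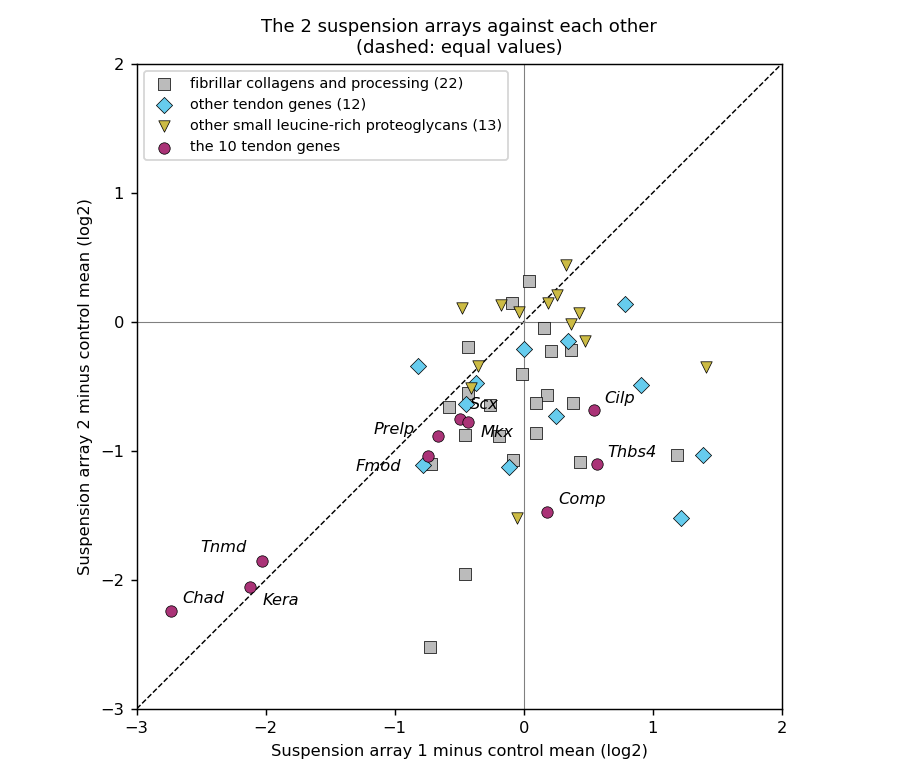
Each point is a gene, placed by its log2 signal minus the control mean on suspension array 1 (horizontal) and array 2 (vertical), for the 10 tendon genes and 3 other matrix lists; the dashed line marks equal values. Chad, Kera and Tnmd lie near the line at -1.85 or below on both arrays, whereas Comp, Thbs4 and Cilp lie above 0 on array 1 and below 0 on array 2.

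Other matrix genes were also lower on suspension array 2 than on array 1. A signal lower by more than 1 log2 on array 2 was found for 125 of 19938 genes (0.627%), for Tnc, Abi3bp, Angptl7 and Prg4 of 12 other genes known for expression in tendon, and for Col1a1, Col1a2, Col3a1, Lox and Loxl1 of 22 fibrillar collagen and processing genes. On suspension arrays 1 and 2 the 8 macrophage markers averaged 0.48 and -0.22 relative to control, and the 10 interstitial fibroblast markers -0.01 and -0.35. The mean of 10 muscle fibre markers was alike on both, at -0.51 and -0.52. The part of other cell types in the gap of Comp, Thbs4 and Cilp was not tested.

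The question put by suspension minus control is how unloading changes the soleus. In the fit across all genes (limma, adjusted p under 0.05 by Benjamini-Hochberg), 3 of the 10 genes were called lower, Chad, Kera and Tnmd, where 0.512% of all genes were called lower. They were among the values that chose the list, so nothing is read from this count. The groups did not overlap for 7 of the 10 genes, all lower, where 18.5% of all genes were lower without overlap and 39.8% were without overlap in either direction. When dim genes were left out, Fmod and Prelp passed the threshold as well, with 260 genes called in all. This was not the only alternative in which both passed, and nothing is read from these calls either.

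The treatment of unloaded muscle is addressed by suspension with electroacupuncture minus suspension. Here 0 of the 10 genes and 0 of 19938 (0.00%) were called by limma, and 612 genes (3.07%) had an unadjusted p under 0.05. The electroacupuncture arrays were higher without overlap for Chad, Tnmd, Mkx, Fmod and Prelp, where 15.4% of all genes were higher without overlap, and lower for Scx, where 17.1% were lower (32.5% in either direction). Chad was called in some alternatives, among them array weights and only the 2 groups fitted, where 4 and 3 genes were called in all. Its values are among those that chose the list, so nothing is read from these calls. No other gene of the 10 was called in any alternative of this comparison.

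In suspension with electroacupuncture minus control, 3 of the 10 genes were called lower, Kera, Tnmd and Scx, where 0.587% of all genes were called lower and 0.446% higher. Here too the values called are among those that chose the list, and nothing is read from the count. The groups did not overlap for these 3 and for Thbs4, all lower, where 20.0% of all genes were lower without overlap and 41.8% were without overlap in either direction. The calls of Kera and Tnmd were lost without either electroacupuncture array, and in those fits 9 and 2 genes were called in all. The call of Scx was lost in 7 of 16 alternatives, among them those without control array 2 or without any 1 of the 4 suspended arrays.

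**Figure D3:**
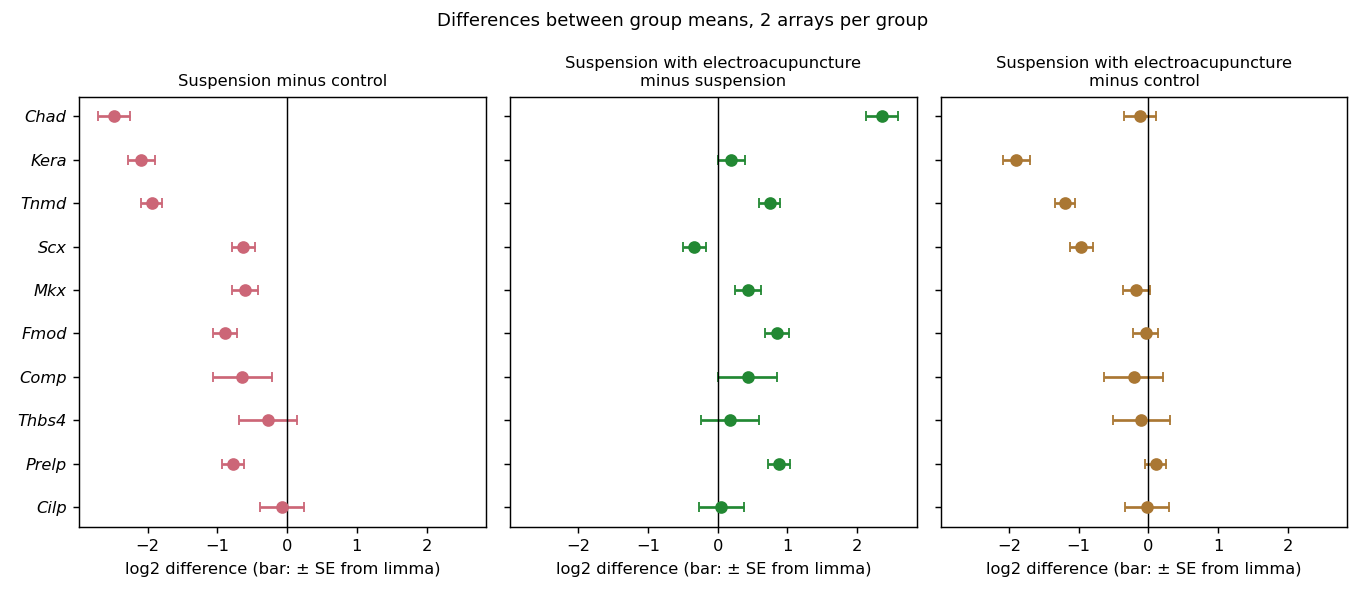
Log2 difference between group means (horizontal axis, bars ± SE from limma, 2 arrays per group) for each tendon gene in the 3 comparisons. Chad is at -2.48 and 2.36 in the first 2 panels and at -0.12 against control, while Kera is at -2.09, 0.20 and -1.89; the wide bars of Comp, Thbs4 and Cilp come with the gap between suspension arrays.

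Relatives of the 10 genes were counted over lists drawn up by family or known function. Of 13 other small leucine-rich proteoglycan genes, 0 were called in any comparison by limma, where 1.05%, 0.00% and 1.03% of all genes were called in the 3 comparisons. Of these 13, 1 had an unadjusted p under 0.05 in suspension minus control and 3 in each of the other comparisons, where 12.7%, 3.07% and 12.8% of all genes did in the 3 comparisons. Every later count at an unadjusted p is to be read against these shares. Their median difference in suspension minus control was 0.16. Decorin (Dcn), the main such proteoglycan of tendon, read 11.18 and 11.43 in control, 11.50 and 11.46 in suspension and 11.81 and 11.71 in the electroacupuncture group. Asporin (Aspn) and osteoglycin (Ogn) differed by 0.64 ± 0.17 and 0.59 ± 0.19 in suspension with electroacupuncture minus suspension (limma adjusted p = 1.00 for both). Unlike Fmod and Prelp, both lay within 0.2 of control in suspension, at 0.02 and -0.19.

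Of 9 other thrombospondin, matrilin, CILP and chondromodulin genes, 0 were called in any comparison by limma, with 3, 3 and 1 at an unadjusted p under 0.05. The nearest was Cilp2, the second cartilage intermediate layer protein gene, with 6.04 and 6.08 in control, 5.14 and 5.34 in suspension and 5.76 and 6.09 in the electroacupuncture group. It differed by -0.83 ± 0.16 (limma adjusted p = 0.0550) and by 0.69 ± 0.16 (adjusted p = 1.00), values near those of Fmod and Prelp rather than of Cilp. Thbs1 differed by -0.91 ± 0.20 (limma adjusted p = 0.0864) and 0.74 ± 0.20, and Thbs3 by 0.66 ± 0.18 and -0.25 ± 0.18. Cnmd, the chondromodulin gene related to Tnmd, read between 3.08 and 3.64 on the 6 arrays.

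Of 12 other genes known for expression in tendon, 1 fell in suspension minus control and none in the other comparisons by limma, with 4, 4 and 3 at an unadjusted p under 0.05. It was Col12a1, a collagen on fibril surfaces, with 6.86 and 7.06 in control and 6.18 and 5.85 in suspension (-0.94 ± 0.17, adjusted p = 0.0413). The call was lost in 10 of 16 alternatives, among them each of the 6 fits without an array, array weights and the prior without trend. Over the 12 genes the median difference from control was -0.20 in suspension. Fibin, a secreted factor gene, was at 0.93 ± 0.16 in suspension with electroacupuncture minus suspension (limma adjusted p = 0.471), with 4.88 and 4.67 in suspension and 5.81 and 5.60 in the electroacupuncture group, and Angptl7 at 1.14 ± 0.29. For Fibin the electroacupuncture arrays were also above both control arrays, 4.99 and 4.77.

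Of 16 other transcription factors and cofactors of tendon cells, 0 were called by limma in any comparison, with 3, 0 and 4 at an unadjusted p under 0.05. Their medians were 0.02, -0.05 and 0.01. The chondrogenic factor gene Sox9, which works with Scx in cells at the tendon insertion, differed by -0.49 ± 0.19, -0.31 ± 0.19 and -0.80 ± 0.19, the same order of groups as for Scx. The mechanosensitive factor gene Egr1 differed by -0.03 ± 0.19 in suspension minus control. Tcf15 differed by -0.55 ± 0.14 (adjusted p = 0.134), and the E protein genes Tcf3 and Tcf12, whose products pair with scleraxis, by 0.08 ± 0.13 and 0.17 ± 0.15.

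TGF-beta and growth and differentiation factors are the main known inducers of tendon genes. Of 14 ligand genes, 0 were called by limma in any comparison, with 2, 0 and 3 at an unadjusted p under 0.05. The TGF-beta target Ccn2, encoding connective tissue growth factor, read 9.90 and 9.38 in control, 8.94 and 7.93 in suspension and 8.07 and 9.16 in the electroacupuncture group (-1.20 ± 0.39 in suspension minus control, limma adjusted p = 0.226). Tgfb1, Tgfb2 and Tgfb3 differed by -0.35 ± 0.26, 0.26 ± 0.13 and -0.21 ± 0.20. Of 17 receptor and SMAD genes, 0 were called by limma, with 7, 2 and 5 at an unadjusted p under 0.05 (12.7%, 3.07% and 12.8% of all genes) and a median of 0.21 in suspension minus control. The activin and myostatin receptor gene Acvr2b differed by 0.94 ± 0.18 (adjusted p = 0.0532) and the TGF-beta co-receptor gene Tgfbr3 by 0.61 ± 0.18.

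Of 22 genes of fibrillar collagens and their processing, 1, the collagen prolyl hydroxylase gene P4ha1, fell in suspension minus control (-0.91 ± 0.16, limma adjusted p = 0.0413), and 0 were called in the other comparisons. At an unadjusted p under 0.05 there were 8, 0 and 9, against 12.7%, 3.07% and 12.8% of all genes. In 9 of 16 alternatives 0 of the 22 were called in suspension minus control, among them array weights, the prior without trend and the fits without any 1 array other than suspension array 1. The median of the list was -0.32 in suspension minus control, with list means of -0.06 and -0.71 from control on suspension arrays 1 and 2. It was -0.40 in suspension with electroacupuncture minus control, where 21 of 22 differences were below 0, as were 49.0% of those of all genes. Col1a1, the chain gene of the main tendon collagen, read 9.41 and 9.01, 8.48 and 6.69, and 7.27 and 7.48 in the 3 groups. Its electroacupuncture arrays stood below both control arrays. Of 12 genes of the myotendinous junction, where muscle fibres attach to tendon, Nes fell in suspension minus control (-1.23 ± 0.22, limma adjusted p = 0.0406), and 0 were called in the other comparisons, with 7, 0 and 8 at an unadjusted p under 0.05 (12.7%, 3.07% and 12.8% of all genes). The list had 0 called in 6 of 16 alternatives of suspension minus control, namely array weights, the prior without trend, the replicate block and the fits without control array 1 or either suspension array. The junctional collagen gene Col22a1 differed by -0.68 ± 0.15 (adjusted p = 0.0856).

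Markers of other cell types were set beside these values. Of 12 cartilage markers 0 were called by limma in any comparison, with 2, 1 and 2 at an unadjusted p under 0.05. Of the 12, 10 had a mean signal above the background percentile, where 13717 of 19938 genes did. Of 6 measured bone markers 1 was above it, Alpl, which is also made by other cells, and it fell in suspension minus control (-0.85 ± 0.15, limma adjusted p = 0.0444) and in suspension with electroacupuncture minus control (-1.04 ± 0.15). These calls were lost in 10 of 16 alternatives, among them the fits without control array 1 or any suspended array, and in 2 of 16, the fits without either electroacupuncture array. None of 10 interstitial fibroblast markers was called by limma (6, 1 and 1 at an unadjusted p under 0.05), and their group means were 7.06, 6.88 and 7.02 for control, suspension and electroacupuncture. Their differences went both ways in suspension minus control, from -0.80 ± 0.22 for Mfap5, an elastic fibre gene, and -0.67 ± 0.17 for Dpp4 to 0.50 ± 0.16 for Pdgfrb. Mfap5 was at 0.64 ± 0.22 in suspension with electroacupuncture minus suspension and at -0.16 ± 0.22 against control, an order of groups shared with Fmod.

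None of 8 macrophage and 6 endothelial markers was called by limma in suspension with electroacupuncture minus suspension, with 0 and 3 at an unadjusted p under 0.05. All 8 macrophage differences were above 0 against suspension, with list means of 0.63 and 0.40 from control on the electroacupuncture arrays and 0.48 on suspension array 1. All 6 endothelial differences were below 0, as were 51.6% of those of all genes, with list means of -0.39 and -0.47. Of the 6 endothelial markers, Kdr, the VEGF receptor gene, was called lower in suspension with electroacupuncture minus control (limma adjusted p = 0.0135). That call was lost without either electroacupuncture array. The 7 measured adipocyte markers had median differences of -0.69, 0.42 and -0.27 in the 3 comparisons, beside -0.71, 0.43 and -0.15 for the 10 tendon genes. All 7 were below 0 in suspension minus control, as were 48.9% of all genes. Of the 7, 0 were called by limma and 0 had an unadjusted p under 0.05 in any comparison. The control arrays lay at -0.77 and 0.77 from their mean in the adipocyte list and at 0.03 and -0.03 in the tendon genes. Of 5 Schwann cell markers 0 were called by limma, with 0, 1 and 0 at an unadjusted p under 0.05. Of 10 muscle fibre markers 6, 0 and 4 had an unadjusted p under 0.05 in the 3 comparisons. By limma Myh2 and Casq2 fell in suspension minus control, where 0.512% of all genes were called lower. Myh2, Myl3 and Casq2 fell in suspension with electroacupuncture minus control, where 0.587% were called lower. Fewer of the list were called in 3 and 8 of 16 alternatives of these comparisons with control. Among them were the fits without control array 2 or either suspension array. The part of these cell types in the tendon gene values was not tested.

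**Figure D4:**
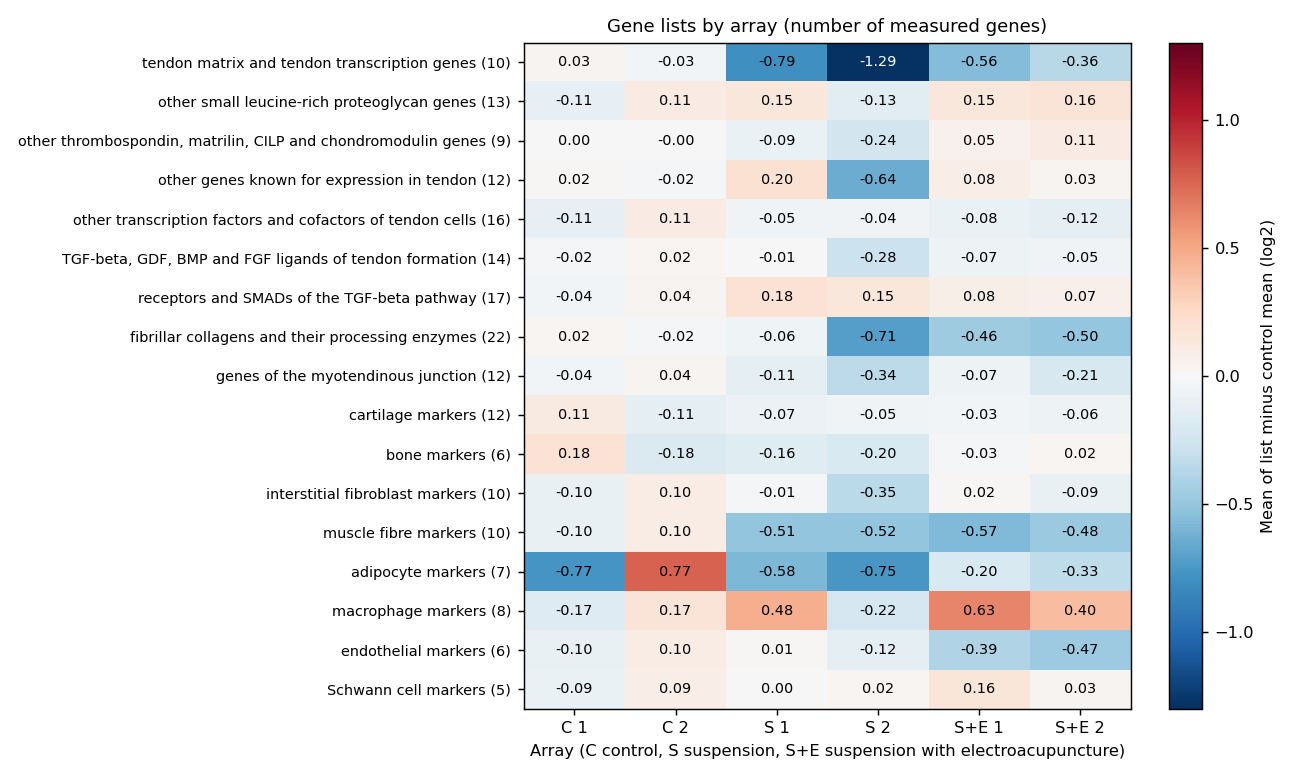
Mean over the measured genes of each list (rows, number of genes in brackets) minus the control mean, in log2, on each array (columns). The 10 tendon genes, whose values chose them, are at -0.79 and -1.29 on the suspension arrays and at -0.56 and -0.36 on the electroacupuncture arrays; the fibrillar collagen list is at -0.06 and -0.71, then -0.46 and -0.50.

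The genes whose profiles were most like those of Chad, Kera and Tnmd were sought among 9578 named genes at or above the median signal, by the same root mean square difference over the 6 arrays. The 10 tendon genes were not among these candidates. The nearest to Chad were Map3k7cl (0.73), the elastic fibre gene Mfap4 (0.76) and the myosin light chain gene Myl6b (0.77), against a root mean square of 1.17 for Chad itself about its mean. Of the tendon genes, Tnmd lay nearest to Chad, at 0.69. Mfap4 read 6.71 and 6.77 in control, 5.93 and 5.62 in suspension and 6.56 and 6.74 in the electroacupuncture group. For Kera the nearest were the phosphatase gene Inpp5j (0.22), the HSP70 gene Hspa1l (0.26) and the carboxypeptidase-like gene Cpxm2 (0.27), and for Tnmd they were Inpp5j (0.20), Nlrc3 (0.22) and the stretch-responsive muscle gene Ankrd2 (0.24). Kera and Tnmd differed from each other by 0.33, with 7 of all genes closer to Kera than Tnmd.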

How the data were processed

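Expression was measured on 6 Affymetrix Mouse Gene 1.0 ST arrays of mouse soleus, grouped by their titles. Per the labels' processing notes, the authors computed the deposited log2 signals by RMA in Affymetrix Expression Console, and versions and genome build are not given in the sources used here. RMA gives all arrays nearly 1 distribution, so a shift of most genes would not be seen. Precision is limited by having only 6 arrays. Of 35556 transcript clusters, 21789 with a single symbol were used (1621 had several and 12146 none), and the cluster with the highest mean was kept per symbol, which left 19938 genes. limma 3.58.1 (R 4.3.3) fitted a linear model over the 3 groups (trended variance, 3 residual and 5.88 prior degrees of freedom). The p-values were adjusted by Benjamini-Hochberg at 0.05. The fit was also run on simulated data with independent noise and spreads shuffled over genes. That run cannot test shifts that many genes of 1 array share, or a spread that depends on signal.

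The members, lists and tests were chosen with earlier results of these data known. Named are the 10 members, list genes past the threshold or among the 4 smallest p of a list, and the nearest profiles; other list genes shown as examples, Acsf2, Bop1 and Optc, and the members' promoters, closeness and array gaps were chosen after their values were seen. Alternatives were another variance prior, array weights, 3 scalings, a filter on dim genes, the mean of clusters, the compared groups alone, replicate blocks and each array left out.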

Additional observations from a re-analysis of the deposited data

How the results depend on the processing

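With 2 arrays per group and 3 residual degrees of freedom, calls depend on single arrays, while the differences of Chad, Kera, Tnmd, Scx, Mkx, Fmod and Prelp in suspension minus control kept their sign in all 16 alternatives, which the choice of these genes by their values favours. Comp, Thbs4 and Cilp turned without suspension array 2, and Cilp also in another alternative. The median difference of the 10 genes ran from -1.07 to -0.58 (suspension minus control), from 0.25 to 0.83 (suspension with electroacupuncture minus suspension) and from -0.31 to -0.10 (suspension with electroacupuncture minus control) when arrays were left out, the first 2 being -1.07 and 0.83 without suspension array 1.

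Of all genes, 209, 0 and 206 were called in these comparisons. Leaving out an array gave 16 (suspension array 1) to 301 (control array 2), 0 to 3, and 2 (electroacupuncture array 2) to 299 (control array 2). A variance prior without trend gave 80 and 101 in the first and last comparison, and array weights 130 and 4 in the first 2. Fitting only the compared groups gave 68, 3 and 129, and repeated quantile normalization 312 in the last. Same-numbered arrays did not deviate together (correlations of deviations -0.16, 0.02 and -0.02), and the samples share only a number. The replicate block gave 102 and 127 calls in the first and last comparison. With the suspension numbers crossed, an alternative chosen after seeing the data, it gave 266 and 285. The causes of these changes were not tested, other than that fits with fewer arrays have fewer degrees of freedom. The filter on dim genes gave 5 of the 10 genes called in suspension minus control instead of 3. Among the genes it kept 260 were called in all, instead of 209, and the 10 genes were chosen by these values.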

Other observations

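Neighbouring genes of Kera and Tnmd were read on the same arrays. Kera stands in a row of small leucine-rich proteoglycan genes with Lum and Dcn on one side and Epyc on the other, by the order of protein-coding genes in the RefSeq annotation. Lum, the lumican gene, read 5.92 and 6.93 in control, 7.84 and 6.07 in suspension and 6.43 and 6.51 in the electroacupuncture group, and differed by 0.53 ± 0.50 in suspension minus control, where Kera differed by -2.09 ± 0.19. Dcn differed by 0.17 ± 0.14, and Epyc read between 1.68 and 2.17, below the background percentile. Next to Tnmd, the tetraspanin gene Tspan6 read 5.27 and 5.64 in control, 4.75 and 3.90 in suspension and 4.35 and 4.75 in the electroacupuncture group, a difference of -1.13 ± 0.28 in suspension minus control that did not pass (limma adjusted p = 0.11), and Pcdh19 on the other side differed by -0.19 ± 0.18.

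The bone sialoprotein gene Ibsp had the largest difference of the bone markers in suspension with electroacupuncture minus suspension, 1.21 ± 0.24 (limma adjusted p = 0.687), with 1.96 and 1.94 in suspension and 3.23 and 3.09 in the electroacupuncture group, all below the background percentile of 3.50.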
